A study of Mus musculus with 23 samples.

Results

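Tumors grown in obese mice that stayed on a high-fat diet were compared with all tumors grown in mice eating a low-fat diet. The comparison set 6 DIO-HFD tumors against 17 others, 23 in all, and asked which genes had all 3 low-fat group means on the same side of DIO-HFD. Of 19505 genes measured, 10939 (56.1%) met that condition, with DIO-HFD lowest for 4879 (25% of all genes) and highest for 6060 (31.1%). Every tumor was grown from E0771 cells, a mouse triple-negative breast cancer line injected into the fourth mammary fat pad of C57BL/6NCrl mice. Cells were injected 22 weeks after the mice were first randomized to diets, and total RNA of the tumor removed at endpoint was hybridized to an Affymetrix Clariom S array.

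The DIO-HFD mice were made obese on diet D12492, a high-fat diet with 60% of its calories as fat, and remained obese on it. The 17 low-fat arrays comprised 6 of CON-LFD, 5 of DIO-LFD and 6 of DIO-VSG. CON-LFD mice were never obese and ate the control diet D12450J. DIO-LFD mice were made obese and then lost weight on low-fat food. DIO-VSG mice were made obese and then had a vertical sleeve gastrectomy, in which most of the stomach is removed, with low-fat food. Mice without the gastrectomy had sham surgery. Diet and obesity at the time of tumor growth therefore cannot be told apart in DIO-HFD, and CON-LFD differs from the other low-fat groups in never having been obese. The study reports that excised DIO-HFD tumors weighed more than those of each other group. Tumor size therefore cannot be told apart from diet and obesity in DIO-HFD either, and it was not used here. E0771 is a single transplanted line, so the tumors shared their cancer cells and differed in host. The labels do not state that the arrays of a group came from separate mice, and the p-values measure the spread between these arrays.

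Signal of the filament genes Vim and Krt8 was high in every array. Vim, which encodes the mesenchymal filament vimentin, lay between 17.23 and 17.64 on the log2 scale in all 23 arrays, and Krt8, a keratin of luminal cells, between 11.28 and 13.20. Of 21 mammary and keratin genes, 15 averaged under 4.77, the limit below which signal was treated as low and under which 7618 of all 19505 genes lay. Esr1, the estrogen receptor, had a median of 4.54 in both classes. Skeletal muscle was present in part of the samples. The mean of 28 muscle genes ran from 5.13 to 9.48 in DIO-HFD and from 4.96 to 14.26 in low-fat tumors, and 8 arrays (1 of DIO-HFD) were rich in it. DIO-HFD replicate 5 carried fat tissue, with an adipocyte list mean of 11.27 against at most 7.89 in the low-fat arrays.

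A label conflict bears on all results below. The title and the group characteristic place 1 array in DIO-LFD as replicate 1, while its source name reads as that of DIO-HFD. DIO-VSG replicate 1 has the source name of DIO-LFD, which leaves it within the low-fat class. Titles decided the group of both arrays, the group sizes that the study states for these arrays match the titles and not the source names, and results that rest on DIO-LFD replicate 1 are given with and without it. When each array was left out in turn and placed on the 100 genes of smallest p from the remaining 22 (0 for the mean of DIO-HFD, 1 for the mean of low-fat), DIO-LFD replicate 1 fell at -0.14. The 16 other low-fat arrays fell between 0.44 and 1.31, and the DIO-HFD arrays between 0.02 and 0.79. Most DIO-HFD arrays lay nearer to the low-fat mean than to their own, with replicates 2, 4, 5 and 6 at 0.53, 0.79, 0.53 and 0.68. The ranked genes thus did not place most left-out DIO-HFD arrays with DIO-HFD. These positions were computed after earlier results were known and are a description. With 50 genes DIO-LFD replicate 1 lay at -0.32 and with 200 genes at -0.07. The lowest of the remaining low-fat arrays was DIO-VSG replicate 1, and the DIO-HFD array nearest to the low-fat mean was replicate 4. The classes overlapped in this measure even without DIO-LFD replicate 1.

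**Figure D1:**
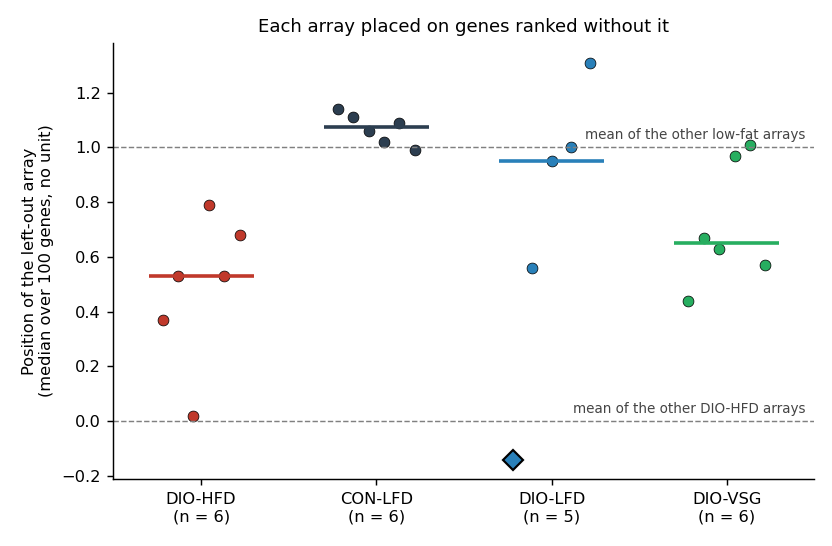
Position of each array (y axis, no unit) on the 100 genes of smallest p from the fit that left it out, by group, where 0 is the mean of the other DIO-HFD arrays and 1 the mean of the other low-fat arrays. Points are arrays, short lines are group medians, and the diamond is DIO-LFD replicate 1, which lies at -0.14 while the CON-LFD arrays lie between 0.99 and 1.14.

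Interferons are secreted by infected cells, myeloid cells and lymphocytes. Type I interferons signal through IFNAR1 and IFNAR2 to a complex that holds STAT2 and IRF9 and binds the interferon-stimulated response element, and interferon gamma signals through IFNGR1 and IFNGR2 to factors that bind gamma-activated sites. Their targets include antiviral proteins, the guanylate-binding proteins and immunity-related GTPases, the chemokines that draw in T cells, and the MHC class I machinery that displays peptides to CD8 T cells. In tumors these genes reflect both the cancer cells and the immune cells among them, and obesity is known to alter the immune cells of mammary tumors.

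No gene passed the test between DIO-HFD and the pooled low-fat tumors (limma, Benjamini-Hochberg adjusted p under 0.05, 0 called of 19505, or 0%). At an unadjusted p under 0.05, 1967 genes (10.1%) were counted, 838 lower in DIO-HFD (4.3% of all genes) and 1129 higher (5.79%), and 1964 of the 1967 had all 3 low-fat means on 1 side. The smallest adjusted p was 0.148 and was shared by 28 genes. For 69 genes the adjusted p was under 0.2, and 43 of these were lower in DIO-HFD and 26 higher. Without DIO-LFD replicate 1, 45 genes passed, 38 lower in DIO-HFD (0.195% of all genes) and 7 higher (0.0359%). With that array counted as DIO-HFD, as its source name has it, 148 genes passed, 126 lower (0.646%) and 22 higher (0.113%), and 44 of the 45 were among them. The 45 calls were not stable. With each further array left out they numbered from 0 (without DIO-HFD replicate 3, or without replicate 5) to 106 (without DIO-HFD replicate 4). They numbered 0 as well without the other muscle-rich arrays, or when the mean of the T cell markers in each array was a term in the fit, so every gene described below as passing without DIO-LFD replicate 1 lost its call in these 4 fits.

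The 12 genes of smallest p in each direction are named below, a choice made after their values were seen because no gene passed. Among those lower in DIO-HFD were Il15ra, Ifi207, Parp10, Trim30d, Stat2, Trim30a, Gbp9 and Dtx3l, of which Stat2 belongs to the interferon signal path and Ifi207, Trim30a, Trim30d, Gbp9 and Dtx3l are known as interferon-induced. Aldh1b1, Rab27a, Adap2 and Ccdc137 completed the 12. Among those higher were Slc22a23, Zfp87, Hebp1, Decr1, Akr1e1, Hbp1 and Pradc1, and 5 that averaged under the low-signal limit, H60c, Tmem190, Trpa1, Hand2 and Trim29.

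The promoters of genes lower in DIO-HFD are shown here for the response element that type I interferon signaling uses. The motif searched, called the response element motif below, was GAAA, any 2 bases and GAAA again, on both strands, in the 250 bases before and the 50 after each RefSeq start site (GRCm38.p6). Of 15691 measured genes with a promoter in the table, 618 (3.94%) held it. It was present in 12 of the 28 genes with a promoter among the 38 lower genes that passed without DIO-LFD replicate 1 (42.9%), and in 0 of the 5 with one among the 7 higher genes. Of the type I interferon targets on a list of such genes, 13 of 28 (46.4%) held it, of the interferon gamma targets 8 of 13 (61.5%), and of the T cell markers 0 of 11. The motif TTCNNNGAA, the form of a gamma-activated site, was in 1416 genes (9.02%) and in 7 of the 28 lower genes (25%). It was in 7 of 28 type I targets (25%), 4 of 13 interferon gamma targets (30.8%) and 2 of 11 T cell markers (18.2%). How the shares of these lists differ was not tested. The stretches below each span 60 bases upstream of the start site, on the strand of the gene, with the response element motif, read on either strand, in capitals. A match is a description of the letters and does not show binding.
Ifi207, chr1:173741816-173741875, minus strand: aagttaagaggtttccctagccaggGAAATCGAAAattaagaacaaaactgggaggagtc
Stat2, chr10:128270251-128270310, plus strand: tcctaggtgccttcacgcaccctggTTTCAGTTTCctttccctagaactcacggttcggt
Trim30a, chr7:104465195-104465254, minus strand: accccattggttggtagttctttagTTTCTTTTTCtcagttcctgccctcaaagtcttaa
Trim30d, chr7:104507856-104507915, minus strand: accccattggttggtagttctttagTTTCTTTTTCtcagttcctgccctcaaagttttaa
Gbp7, chr3:142530258-142530317, plus strand: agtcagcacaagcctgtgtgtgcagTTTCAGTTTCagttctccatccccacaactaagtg
Gbp3, chr3:142559977-142560036, plus strand: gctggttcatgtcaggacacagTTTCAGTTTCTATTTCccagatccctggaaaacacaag
Igtp, chr11:58199496-58199555, plus strand: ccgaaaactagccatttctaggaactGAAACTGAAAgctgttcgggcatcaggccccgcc
Irgm1, chr11:48871421-48871480, minus strand: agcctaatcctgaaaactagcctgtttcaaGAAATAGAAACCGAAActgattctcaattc

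In Gbp3 and Irgm1 a pair of overlapping matches makes up the capitals. The match began 41 bases before the start site in Ifi207, 34 in Igtp, 53 in Gbp7 and 222 in Stat2, and the Igtp stretch also holds a TTCNNNGAA match in lower case. The stretches of Trim30a and Trim30d are nearly the same, and these genes, like the guanylate-binding proteins and the immunity-related GTPases, have close copies, so that probes of one may capture transcripts of another. The Igtp stretch likewise resembles that of Irgm2, which is not shown. Such copies can count more than once in the motif shares above, so the matches are not all independent. No promoter of Il15ra, Irf1, Psmb10, Psme2 or Cxcl9 in the table held the response element motif within this window.

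The interferon ligands and receptors differed in both directions, and none passed the test. Of 10 measured, 4 had a difference below 0 and 6 above, 2 were lower and 1 higher at an unadjusted p under 0.05 (against 4.3% and 5.79% of all genes), with a median difference (DIO-HFD minus low-fat, log2, here and below) of 0.07 against 0.02 over all genes. Ifnar2, a chain of the type I receptor, read 13.02 at the lowest, 13.16 at the median and 13.40 at the highest in DIO-HFD, and 13.16, 13.48 and 13.68 in the low-fat tumors, a difference of -0.26 (SE 0.10, adjusted p = 0.347). Ifng, the gene of interferon gamma itself, averaged 5.34 ± 0.81 (SD, n = 6) in DIO-HFD and 6.72 ± 1.42 (SD, n = 17) in the low-fat tumors, a difference of -1.38 (SE 0.57, adjusted p = 0.417). The lowest Ifng value of all low-fat arrays, 3.53, was that of DIO-LFD replicate 1, and 7 low-fat arrays lay at or below the highest DIO-HFD value.

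Among the transducers, all 12 genes measured had the 3 low-fat means above DIO-HFD, and 6 reached an unadjusted p under 0.05, against 25% and 4.3% of all genes. Their median difference was -0.45. Stat2, the subunit particular to the type I complex, read 12.01, 12.54 and 12.84 (lowest, median and highest) in DIO-HFD and 12.09, 13.36 and 13.85 in the low-fat tumors. The difference of -0.83 (SE 0.18), or 1.78-fold, had an adjusted p of 0.148. Its lowest low-fat value belonged to DIO-LFD replicate 1, and every other low-fat array lay above all 6 DIO-HFD arrays. Without that array the difference was -0.91 (adjusted p = 0.00873), and the call was kept in 20 of the 22 fits that left out a further array. Irf1, an interferon gamma-induced transcription factor that switches on MHC class I genes, differed by -0.89 (SE 0.28, adjusted p = 0.290), and Irf7, the factor that amplifies type I interferon production, by -0.94 (SE 0.31, adjusted p = 0.313). Without DIO-HFD replicate 3, 3 of the 12 were left at an unadjusted p under 0.05.

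All 36 type I interferon targets measured had the 3 low-fat means above DIO-HFD, against 25% of all genes. Of these, 31 had an unadjusted p under 0.05 in that direction (0 in the other), against 4.3% and 5.79% of all genes. The median difference was -0.66. Parp10, an ADP-ribosyltransferase named among the 12 and outside that list, read 11.59, 12.23 and 12.64 in DIO-HFD and 12.16, 13.05 and 13.50 in the low-fat tumors (difference -0.76, SE 0.16, adjusted p = 0.148). Dtx3l, the ubiquitin ligase that partners Parp9, read 10.32, 10.84 and 11.30 in DIO-HFD and 10.48, 11.60 and 12.15 in the low-fat tumors (difference -0.75, SE 0.17, adjusted p = 0.148). In both genes the lowest low-fat value was that of DIO-LFD replicate 1, and low-fat arrays at or below the highest DIO-HFD value numbered 1 for Parp10 and 3 for Dtx3l.

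Trim30a, a tripartite-motif protein that restrains innate signaling, differed by -0.81 (SE 0.18), Trim30d by -0.82 (SE 0.17), Parp14 by -0.93 (SE 0.22) and Parp9 by -0.63 (SE 0.19). Adar, the RNA-editing enzyme, differed by -0.58 (SE 0.15). Zbp1, a sensor of left-handed nucleic acids, and Oas3, a synthetase of the RNase L path, each read 2.01-fold lower (unadjusted p = 0.00154 and 0.0039). For Mx1 and Isg15, antiviral effectors picked out after their values were seen, the differences were -0.79 (unadjusted p = 0.0139) and -0.92 (unadjusted p = 0.00429). Members that missed the unadjusted p were Cmpk2, Ifit1, Ifitm3, Samd9l and Rsad2, with differences from -0.44 to -0.10. Without DIO-HFD replicate 3 the count of 31 was 23.

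Ifi207, a member of the interferon-inducible PYHIN family of nucleic acid-binding proteins, was the gene whose classes did not overlap. All 6 DIO-HFD arrays (13.79, 14.34 and 14.53) lay below all 17 low-fat arrays (14.54, 14.94 and 15.45), which held for 1 gene of 19505 (0.00513%), and 0 genes had the reverse. The nearest arrays of the classes differed only in the last digit the values carry, and DIO-LFD replicate 1 read 14.85, inside the low-fat range. The difference was -0.70 (SE 0.14, 1.63-fold, adjusted p = 0.148). Without DIO-LFD replicate 1, 5 genes (0.0256%) did not overlap, Ifi207, Parp10, Stat2, Parp14 and Irgm1.

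**Figure D2:**
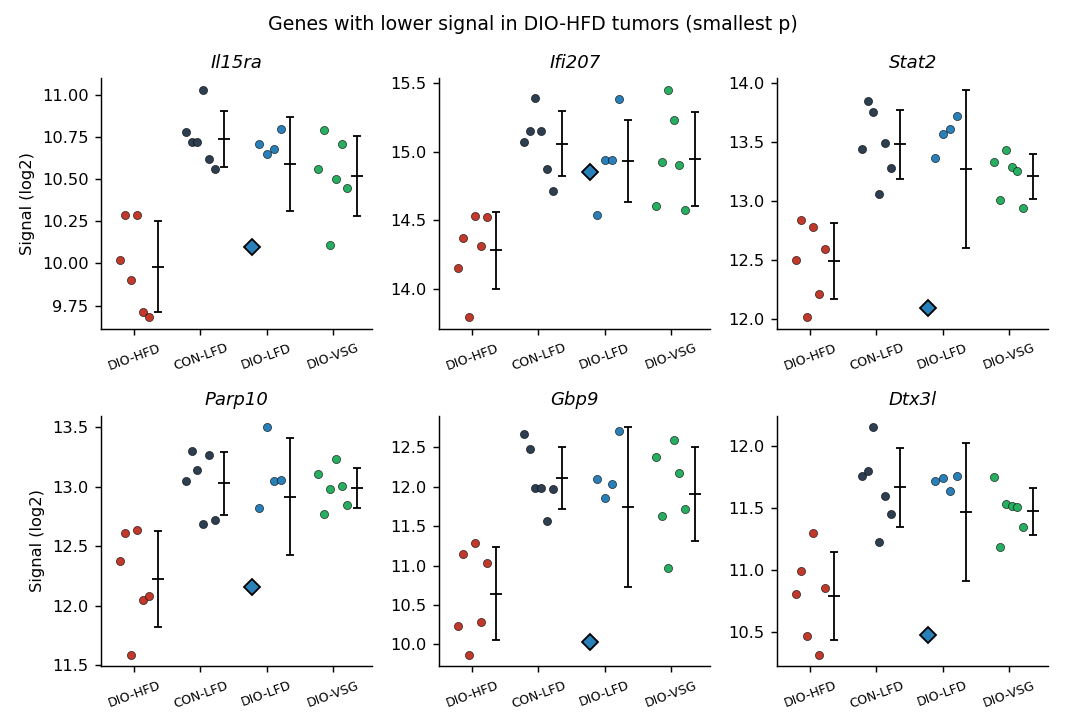
Signal (log2, y axes differ) of 6 genes among the 12 lower ones of smallest p, by group, with arrays as points, the group mean and SD beside them, and DIO-LFD replicate 1 as a diamond. For Stat2 that array read 12.09 and lay among the DIO-HFD arrays, while for Ifi207 it read 14.85 and lay among the low-fat arrays.

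Interferon gamma targets showed the largest median difference of the interferon lists. Of 20 measured, 18 had the low-fat means above DIO-HFD and 1 below, against 25% and 31.1% of all genes. With DIO-HFD lower, 16 had an unadjusted p under 0.05 (0 higher), against 4.3% of all genes (5.79% higher). The median difference was -0.88. Gbp9, a guanylate-binding protein, read 9.87, 10.65 and 11.29 in DIO-HFD and 10.03, 11.98 and 12.71 in the low-fat tumors, a difference of -1.29 (SE 0.29, 2.44-fold, adjusted p = 0.148). It was lowest among the low-fat arrays in DIO-LFD replicate 1, and 2 low-fat arrays lay at or below the highest DIO-HFD value. Igtp, an immunity-related GTPase that acts on pathogen vacuoles, read 10.73, 11.34 and 12.32 in DIO-HFD and 10.35, 12.76 and 13.44 in the low-fat tumors (difference -1.19, SE 0.30, adjusted p = 0.188). Its value in DIO-LFD replicate 1, 10.35, was under every DIO-HFD value.

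Without DIO-LFD replicate 1, 8 of the 20 passed the test, and with that array counted as DIO-HFD 14 did. Gbp9 and Igtp each had an adjusted p of 0.00873 without it, as did Irgm1, whose difference in the full set was -0.67 (SE 0.20, adjusted p = 0.290). Cxcl9, the chemokine that draws CXCR3-bearing T cells, was the member that depended most on the array. It read 10.88, 12.93 and 13.28 in DIO-HFD and 8.90, 14.01 and 14.89 in the low-fat tumors, where 8.90 was DIO-LFD replicate 1 and the next lowest 12.91. Its difference was -1.19 with the array (SE 0.56, adjusted p = 0.483) and -1.49 without it (adjusted p = 0.0456).

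The MHC class I and peptide loading genes had the low-fat means above DIO-HFD for all 18 measured, against 25% of all genes. Of these, 15 had an unadjusted p under 0.05, against 4.3% of all genes, and the median difference was -0.54. Psmb10, a catalytic subunit of the immunoproteasome that cuts peptides for class I, read 9.70, 10.31 and 11.12 in DIO-HFD and 9.49, 11.65 and 12.30 in the low-fat tumors (difference -1.15, SE 0.29, 2.23-fold, adjusted p = 0.188). It passed without DIO-LFD replicate 1 (adjusted p = 0.0104), as did Psme2, a subunit of the proteasome activator PA28 (-0.79, adjusted p = 0.0384). Psmb9 differed by -0.83 (SE 0.23) and the nonclassical class I gene H2-T23 by -1.04 (SE 0.35), with neither passing in either set. The class II genes, which present peptides to CD4 T cells on myeloid and B cells, had a median difference of -0.87. Of 10 measured, 6 had an unadjusted p under 0.05 with DIO-HFD lower, against 4.3% of all genes. Without DIO-HFD replicate 3 this count was 1. H2-Aa averaged 12.70 ± 1.63 (SD, n = 6) in DIO-HFD and 14.13 ± 1.05 (SD, n = 17) in the low-fat tumors, and 10 low-fat arrays lay at or below the highest DIO-HFD array.

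T cell marker signal was also lower in DIO-HFD. The mean of 20 T cell markers ran from 5.01 to 6.36 in DIO-HFD and from 4.93 to 7.43 in the low-fat tumors, where the lowest value was DIO-LFD replicate 1 and the next lowest 5.84. Of the 20, 17 had the low-fat means above DIO-HFD (25% of all genes) and 9 had an unadjusted p under 0.05 (4.3% of all genes). The median difference was -0.61. With 1 array left out the count of 9 ran from 6 (without DIO-HFD replicate 3) to 11 (without DIO-HFD replicate 5). In whole tumor RNA, fewer T cells and less RNA per T cell cannot be told apart. Cd8a, the coreceptor of cytotoxic T cells, read 3.67, 5.87 and 7.85 in DIO-HFD and 4.93, 7.93 and 10.08 in the low-fat tumors (difference -2.34, SE 0.63, adjusted p = 0.211), and 8 low-fat arrays lay at or below the highest DIO-HFD value. Cd3e, a chain of the T cell receptor complex, differed by -1.74 (SE 0.67, adjusted p = 0.361). No T cell marker of the list passed without DIO-LFD replicate 1.

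With the T cell mean of each array as a term in the fit, the differences of the interferon gamma and MHC lists shrank more than those of the type I list. The type I median was then -0.48, and 19 of 36 members had an unadjusted p under 0.05 with DIO-HFD lower. The interferon gamma median was -0.24 with 5 of 20, the class I median -0.25 with 4 of 18 and the class II median 0.09 with 0 of 10. Over all genes, 1052 had an unadjusted p under 0.05 in that fit, 370 of them with DIO-HFD lower, and the smallest adjusted p was 0.694. Stat2 differed by -0.58, Il15ra by -0.50 and Cxcl9 by 0.03. The differences between these shrinkages were not tested.

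Il15ra had the smallest p of all genes. It encodes the chain that presents interleukin 15 to CD8 T cells and natural killer cells, and it read 9.68, 9.96 and 10.29 in DIO-HFD and 10.10, 10.68 and 11.03 in the low-fat tumors. The difference was -0.64 (SE 0.13, 1.55-fold, adjusted p = 0.148), and 2 low-fat arrays, DIO-LFD replicate 1 among them, lay at or below the highest DIO-HFD array. Without that array it passed (-0.67, adjusted p = 0.0148), and in 20 of 22 fits with a further array left out. Of 20 cytotoxic and natural killer genes, 6 had an unadjusted p under 0.05 with DIO-HFD lower (0 higher), against 4.3% of all genes (5.79% higher). The median difference was -0.59, or -0.04 with the T cell term, where 0 of 20 had an unadjusted p under 0.05. With 1 array left out the count ran from 4 (without DIO-HFD replicate 1) to 9 (without DIO-LFD replicate 1). Klrk1, which encodes the activating receptor NKG2D, read 5.43, 6.77 and 7.89 in DIO-HFD and 5.72, 8.51 and 9.88 in the low-fat tumors (difference -1.49, SE 0.43, adjusted p = 0.240). H60c, a ligand of the same receptor, was among the higher genes at low signal, with 3.33, 3.90 and 5.21 in DIO-HFD and 2.49, 2.85 and 3.96 in the low-fat tumors (difference 1.07, SE 0.22, adjusted p = 0.148).

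The checkpoint receptors, which dampen T cells, also read lower. Of 11 measured, 9 had the low-fat means above DIO-HFD (25% of all genes) and 6 had an unadjusted p under 0.05 (4.3% of all genes). The median difference was -0.81, or -0.07 with the T cell term. Lag3 read 4.15, 4.64 and 5.91 in DIO-HFD and 3.69, 6.08 and 7.17 in the low-fat tumors (difference -1.25, SE 0.36, adjusted p = 0.244). It passed without DIO-LFD replicate 1, which held its lowest value (adjusted p = 0.0416). Tigit differed by -0.81 (SE 0.22) and by -0.72 with the T cell term, and Pdcd1, the gene of PD-1, by -1.50 (SE 0.50) and by -0.29 with it. Of 9 regulatory T cell genes 1 had an unadjusted p under 0.05, against 4.3% of all genes. It was Ccr8 (difference -0.95, SE 0.36).

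Further genes that passed without DIO-LFD replicate 1 are described here, 3 of them from the 12 above and the rest picked after their values were seen. Rab27a, a GTPase that docks lytic granules and other secretory vesicles, read 6.38, 7.17 and 7.80 in DIO-HFD and 7.26, 8.02 and 8.71 in the low-fat tumors (difference -0.98, SE 0.22, 1.97-fold, adjusted p = 0.148). Adap2, an Arf GTPase-activating protein, differed by -1.19 (SE 0.27) and Aldh1b1, a mitochondrial aldehyde dehydrogenase, by -1.06 (SE 0.23), both with an adjusted p of 0.148. Batf2, an interferon-induced partner of AP-1 factors, had the largest difference of the 45 genes, -2.05 (SE 0.47), and 12 low-fat arrays lay at or below its highest DIO-HFD value. Tlr9, the endosomal DNA receptor, differed by -1.47 (SE 0.40), Ptpn22, a phosphatase of T cell receptor signaling, by -1.48 (SE 0.37), and Sema4d, a semaphorin of leukocytes, by -1.23 (SE 0.29). These 7 genes passed without DIO-LFD replicate 1, with adjusted p-values from 0.0384 to 0.0435. Of the 22 fits that left out a further array, they were called in 5 (Ptpn22) to 11 (Adap2 and Aldh1b1).

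Of the myeloid lists, the macrophage markers had a median near that of the interferon transducers, with 4 of 16 members at an unadjusted p under 0.05 against 6 of 12. The median difference was -0.46 for 16 macrophage markers (4 at an unadjusted p under 0.05 with DIO-HFD lower), -0.28 for 18 dendritic cell markers (3), -0.40 for 12 complement genes (3) and 0.11 for 17 neutrophil markers (1 lower and 1 higher). Over all genes the shares were 4.3% lower and 5.79% higher, and those of the neutrophil markers, 5.88% each way, lay near them. Fcgr1, the high-affinity Fc receptor of macrophages that interferon gamma induces, averaged 13.11 ± 0.67 (SD, n = 6) and 14.00 ± 0.60 (SD, n = 17). Csf3r, the G-CSF receptor of neutrophils, differed by -1.02 (SE 0.34) while Cxcr2, the neutrophil chemokine receptor, differed by 0.58 (SE 0.25). Among the inflammatory cytokines 2 of 19 had an unadjusted p under 0.05 with DIO-HFD lower, Ccl4 and Il18, and 1 with DIO-HFD higher, the monocyte chemokine gene Ccl2 (difference 0.42, SE 0.20, adjusted p = 0.474). None of the members of these 5 lists passed without DIO-LFD replicate 1. Single arrays moved these values. The macrophage median was -0.31 and its count 1 without DIO-HFD replicate 3, and the count was 8 of 16 without DIO-VSG replicate 1. The dendritic cell median was -0.14 without DIO-HFD replicate 1, and its count was 1 without DIO-HFD replicate 3 and 5 without DIO-HFD replicate 4. The complement median was -0.20 without DIO-HFD replicate 3, and its count ran from 1 to 4 over the arrays left out.

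**Figure D3:**
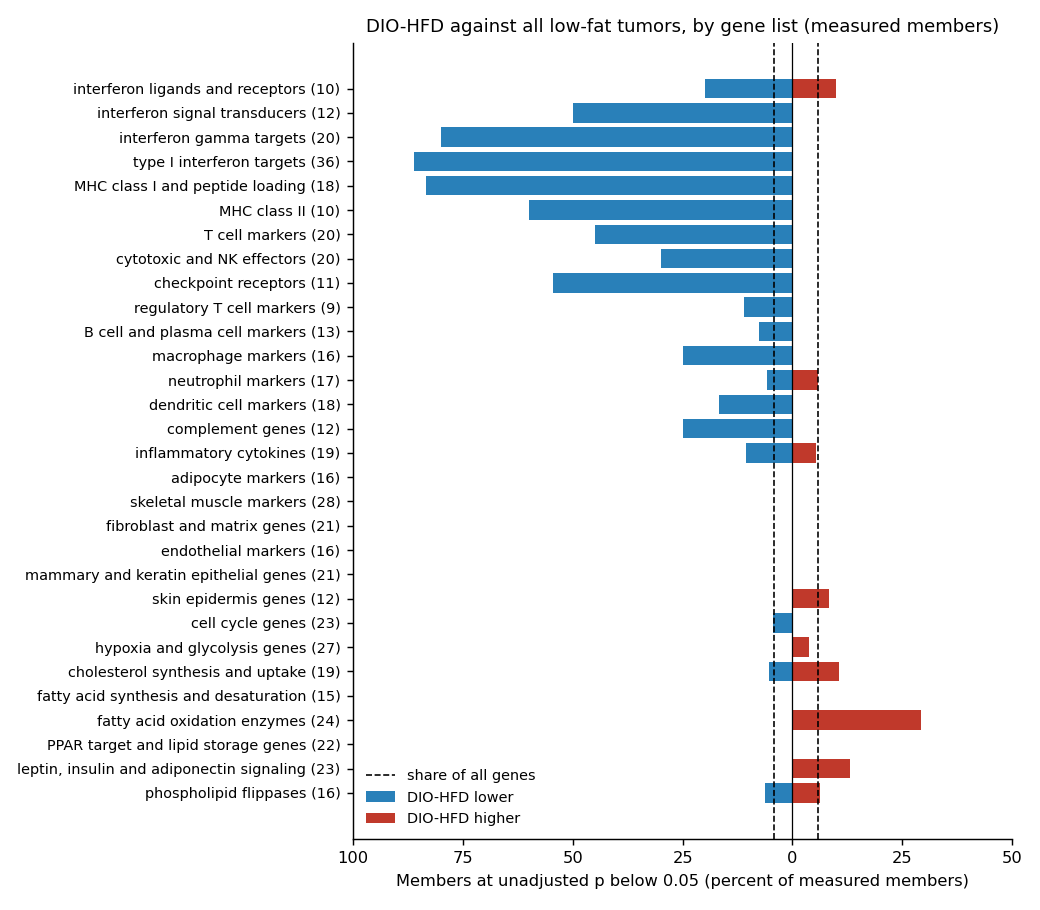
Share of each list's measured members (percent, x axis) at an unadjusted p under 0.05 with DIO-HFD lower (left, blue) or higher (right, red), with the number measured in parentheses and the share of all genes (4.3% and 5.79%) as dashed lines. The type I interferon targets (31 of 36) reached furthest to the left and the fatty acid oxidation enzymes (7 of 24) furthest to the right.

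The genes with higher signal in DIO-HFD came from varied families. Slc22a23, an orphan member of the organic ion transporter family, had the largest difference of the 12, 1.22 (SE 0.25, 2.33-fold, adjusted p = 0.148). It read 7.63, 8.09 and 8.91 in DIO-HFD and 6.11, 7.09 and 7.82 in the low-fat tumors, and 2 low-fat arrays lay at or above the lowest DIO-HFD array. It passed without DIO-LFD replicate 1 (1.26, adjusted p = 0.0384). Hebp1, a heme-binding protein, read 10.95, 11.34 and 11.54 in DIO-HFD and 9.40, 10.55 and 11.23 in the low-fat tumors (difference 0.79, SE 0.17, adjusted p = 0.148), with 1 low-fat array inside the DIO-HFD range. Zfp87, a zinc finger protein, differed by 0.69 (SE 0.15) and passed without DIO-LFD replicate 1 (adjusted p = 0.0426). Akr1e1, an aldo-keto reductase, differed by 0.55 (SE 0.13) and Hbp1, an HMG-box repressor of proliferation genes, by 0.52 (SE 0.12), and neither passed in that set.

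Decr1 encodes the mitochondrial dienoyl-CoA reductase that the breakdown of polyunsaturated fatty acids requires. It read 9.45, 9.71 and 10.03 in DIO-HFD and 8.74, 9.15 and 9.61 in the low-fat tumors, a difference of 0.56 (SE 0.13, 1.48-fold, adjusted p = 0.148), and 2 low-fat arrays lay at or above the lowest DIO-HFD value. It had an adjusted p of 0.0579 without DIO-LFD replicate 1 and 0.0404 with that array counted as DIO-HFD. Of 24 fatty acid oxidation enzymes, 13 had the low-fat means below DIO-HFD and 4 above, against 31.1% and 25% of all genes. At an unadjusted p under 0.05, 7 were higher in DIO-HFD, against 5.79% of all genes, and 0 lower, with a median difference of 0.14. The 7 were Decr1, Acaa2, Ech1, Acads, Etfa, Decr2 and the carnitine carrier Slc25a20, with differences of 0.42 (SE 0.14) for Acaa2, the mitochondrial thiolase, 0.41 (SE 0.14) for Ech1 and 0.41 (SE 0.16) for Acads, the short-chain dehydrogenase. Leaving out DIO-HFD replicate 3 left 3 of the 7, and with the T cell term 4 of 24 were higher and 1 lower.

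**Figure D4:**
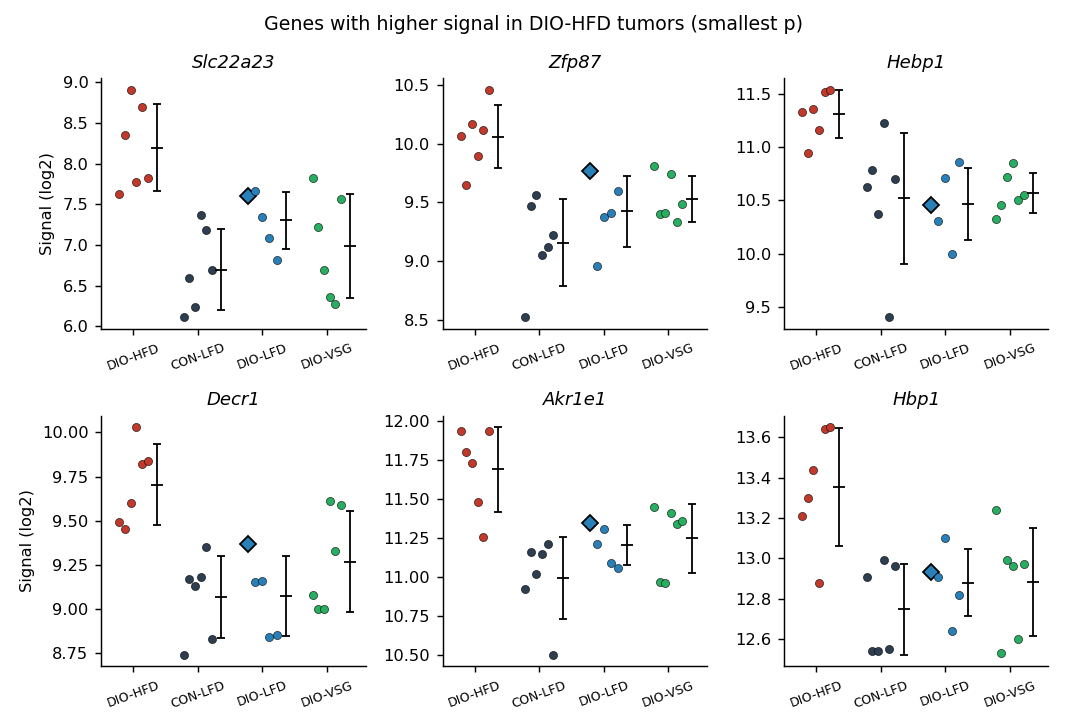
Signal (log2, y axes differ) of 6 genes among the 12 higher ones of smallest p, by group, with arrays as points, the group mean and SD beside them, and DIO-LFD replicate 1 as a diamond. For Hebp1 the DIO-HFD arrays lie between 10.95 and 11.54 and the low-fat arrays between 9.40 and 11.23.

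Other lipid and hormone lists had at most 3 members in either direction at an unadjusted p under 0.05. Of all genes, 4.3% were lower and 5.79% higher. PPAR target and lipid storage genes had a median difference of 0.12 with 0 of 22 at an unadjusted p under 0.05, fatty acid synthesis genes -0.06 with 0 of 15, and cholesterol genes 0.18 with 2 of 19 higher and 1 lower. Plin2, the coat protein of lipid droplets, differed by 0.35 (SE 0.18, unadjusted p = 0.067). The leptin, insulin and adiponectin signaling genes had a median of 0.01, with 3 of 23 higher (13.0%), among them the adiponectin receptor Adipor2 (0.39, SE 0.16, adjusted p = 0.398) and the adiponectin-binding cadherin Cdh13 (0.47, SE 0.22). Without DIO-HFD replicate 3 this count was 0. Hypoxia and glycolysis genes had 15 of 27 with the low-fat means below DIO-HFD, against 31.1% of all genes. At an unadjusted p under 0.05 they had 1, Pdk1 (0.35, SE 0.16), and cell cycle genes had 1 of 23. Among 16 phospholipid flippase genes Atp8a1 differed by -1.22 (SE 0.31, adjusted p = 0.188), and its low-fat means were not alike, with 9.99 ± 0.42 in CON-LFD (SD, n = 6), 9.03 ± 0.71 in DIO-LFD (SD, n = 5) and 8.84 ± 0.54 in DIO-VSG (SD, n = 6). Adipocyte, skeletal muscle, fibroblast and endothelial lists had 0 members at an unadjusted p under 0.05, but single arrays or tissue content moved some of them. The adipocyte median was 0.00 in the full set, and without the fat-rich DIO-HFD replicate 5 it was -0.72 with 3 of 16 members lower at an unadjusted p under 0.05. The muscle median was -1.34 and became 0.54 without the 8 muscle-rich arrays.

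The 3 low-fat groups were then set beside each other. No gene differed among them in an F test after adjustment (0%, smallest adjusted p 0.788), and 1041 (5.34%) had an unadjusted p under 0.05. None of the 45 genes was among the 1041. This follows in part from their choice, since a small spread within the pooled low-fat class favors a call. It does not show that the low-fat groups agree on these genes. For several immune lists the median distance from DIO-HFD was larger for CON-LFD than for the formerly obese groups, a contrast that was not tested list by list. The median difference of the interferon gamma targets was -1.07 against CON-LFD, -0.63 against DIO-LFD and -0.81 against DIO-VSG, and CON-LFD had the highest of the 3 means for 18 of 20 members. For the T cell markers the medians were -1.01, -0.41 and -0.40, with CON-LFD highest for 20 of 20. For the type I targets they lay closer together, at -0.67, -0.64 and -0.55, with CON-LFD highest for 21 of 36. These comparisons share the DIO-HFD arrays, and the DIO-LFD value includes replicate 1. Over all genes CON-LFD was the highest of the 3 for 6560 of 19505. In the limma fit with 1 mean per group, 1 gene (0.00513%) passed between DIO-HFD and CON-LFD alone (smallest adjusted p 0.0346). Against DIO-LFD alone 0 passed (smallest adjusted p 0.46), and against DIO-VSG alone 0 (0.86).

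Stat2 averaged 12.49 ± 0.32 (SD, n = 6) in DIO-HFD, 13.48 ± 0.30 (SD, n = 6) in CON-LFD, 13.27 ± 0.67 (SD, n = 5) in DIO-LFD and 13.21 ± 0.19 (SD, n = 6) in DIO-VSG. Il15ra differed from CON-LFD by -0.76 (SE 0.15), from DIO-LFD by -0.61 (SE 0.16) and from DIO-VSG by -0.54 (SE 0.15). For Ifi207 the differences were -0.78 (SE 0.18), -0.65 (SE 0.18) and -0.67 (SE 0.18). Slc22a23 differed by 1.50 (SE 0.29), 0.89 (SE 0.30) and 1.21 (SE 0.29), and Hebp1 by 0.79 (SE 0.22), 0.84 (SE 0.23) and 0.74 (SE 0.22).

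**Figure D5:**
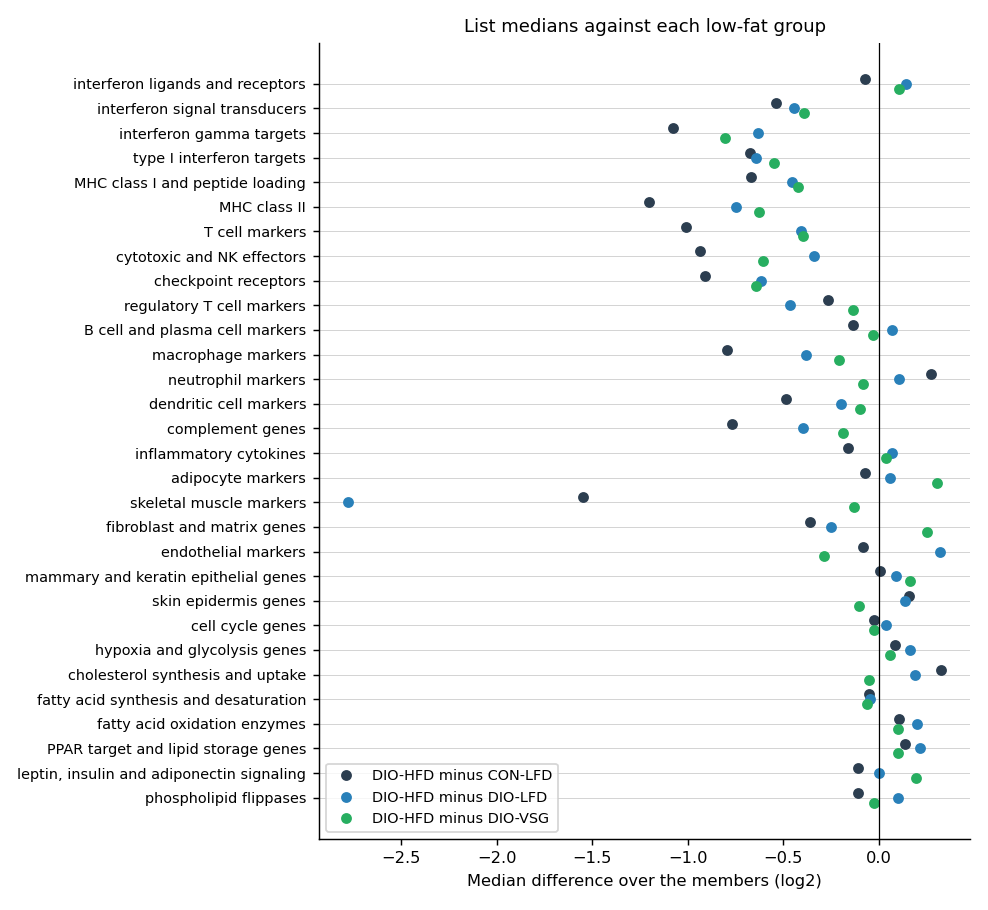
Median difference of each list's members (log2, x axis), DIO-HFD minus each of the 3 low-fat groups, which share the same DIO-HFD arrays. The type I interferon medians lie at -0.67, -0.64 and -0.55, the T cell medians at -1.01, -0.41 and -0.40, and the muscle medians spread widest.

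Of the 45 genes that passed without DIO-LFD replicate 1, 17 belonged to the lists of interferon transducers, interferon gamma or type I targets or MHC class I genes. Those lists hold 86 of the 19505 genes measured. They were chosen with earlier results of these data known, so this overlap is a description and was not tested. None of the 45 genes passed with DIO-LFD replicate 1 in its titled group, so where that array read in them follows in large part from the choice. The skeletal muscle content of the array was among the 8 high ones, and its T cell mean of 4.93 was the lowest of all 23. The part of T cell and muscle content in its position was not tested, and the array values alone do not tell a wrong title from an unusual DIO-LFD tumor.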

How the data were processed

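The authors deposited log2 values of 23 Clariom S HT arrays, which they had normalized with the SST-RMA option of Transcriptome Analysis Console (signal space transformation, then a robust multichip average). They were used without rescaling. Of 22206 probe sets, 19572 had 1 gene symbol and 2634 were unnamed here. The probe set with the highest mean stood for each of 19505 genes. Array medians ran from 6.13 to 6.5. Arrays hold no counts, so their number limits the precision. The low-signal limit was the 40th percentile of probe set means.

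Each gene was tested two-sided with limma 3.58.1 (R 4.3.3, lmFit and eBayes, 21 residual and 4 prior degrees of freedom) on 6 DIO-HFD against 17 pooled low-fat arrays, and p-values were adjusted by Benjamini-Hochberg across the 19505 genes (threshold 0.05). The study's methods name no single-gene test for these arrays. Groups came from titles. On simulated data for this comparison (19505 genes), 78% of genes with a difference of 1 on the log2 scale were recovered. For a difference of 0.5 it was 16%, and 5 unchanged genes were called. The simulated noise was drawn for each gene on its own. It lacks variation that genes share, such as T cell or muscle content, so these shares may not hold for the arrays. The shares also depend on how many genes were changed and by how much (0.5, 1, 2 or 3), since both move the adjusted threshold. The rule for named genes asked for genes called in every fit with 1 array left out, at most 15 each way, and list members by smallest p or largest difference. As none was called, the 12 of smallest p each way took their place, without predicted models, receptor families and immunoglobulins, and other genes were named after their values were seen. Members and the 31 lists (547 of 600 members measured) were chosen with earlier results of these data known. Alternatives changed the normalization, low-signal filter, variance model, arrays and covariates. Promoters are from RefSeq (GRCm38.p6). Replicate numbers were not treated as pairing arrays. A correlation of deviations from the group means over 0.1 was found in 9 of 33 same-numbered pairs (median 0.022). For other-numbered pairs it was 63 of 165 (median -0.026).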

Additional observations from a re-analysis of the deposited data

Results flagged for a closer look

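Among the 24 genes of smallest p in 4 groups each (96 sets of arrays), 3 held an array far from the rest of its group by Dixon's criterion, which chance alone meets in about 1 of 20 sets. The 3 of 96 did not exceed that share, and the sets of a group hold the same arrays, so they are not independent. All 3 were DIO-LFD replicate 1. It read 10.10 for Il15ra, where the other DIO-LFD arrays lay between 10.65 and 10.80, 12.09 for Stat2 (others 13.36 to 13.72) and 10.48 for Dtx3l (others 11.64 to 11.76).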

How the results depend on the processing

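The 24 named genes kept their direction in all 979 values over 41 alternatives. They were chosen for small p in these same values, so this follows in large part from the choice. The count of 0 called genes, with all 3 low-fat means on 1 side or not, changed with DIO-LFD replicate 1 alone, to 45 without it (0 in the other fits leaving out 1 array), 148 with it in DIO-HFD by source name and 99 without both arrays of conflicting labels. Among the low-fat groups it was 0 throughout. The 1967 genes at an unadjusted p under 0.05 became 1052 with the T cell term and ranged from 1317 (without DIO-HFD replicate 3) to 2395 (without DIO-HFD replicate 4) over single arrays. The cause was not tested.

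The 45 genes became 0 with the T cell term or without the other muscle-rich arrays, 27 with median centering, 73 with the low-signal filter (42 shared) and 72 with a mean-variance trend (45 shared). These fits were chosen after seeing the data. Leaving out a further array gave 0 (DIO-HFD replicate 3 or 5) to 106 (DIO-HFD replicate 4). With CON-LFD replicate 1, 2, 4 or 6, DIO-HFD replicate 1 or 2, DIO-LFD replicate 4 or 5, or DIO-VSG replicate 4 or 5 left out, 14 to 21 passed, without CON-LFD replicate 3, 26, and without DIO-VSG replicate 1, 99. With the replicate number as a block, a replicate block the design does not call for, 0 genes passed in the full set and 10 without DIO-LFD replicate 1.

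After median centering the difference had a median of 0.09 over all genes, against 0.02. With the T cell term, the list medians of interferon gamma targets (-0.24), MHC class II (0.09), checkpoint receptors (-0.07) and complement (0.17) moved by more than the SD of low-fat arrays.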
